A study of Mus musculus with 30 samples.

Results

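Col1a1, Col1a2, Col3a1, Col5a1, Col5a2, Col6a1, Col6a2, Col6a3, Sparc and Fn1 are 10 genes of the extracellular matrix: 5 chains of the fibrillar collagens, 3 chains of collagen VI, the collagen-binding glycoprotein SPARC and fibronectin. They were taken by symbol from 48709 genes counted in each tissue, and all 10 were found. The set was put together because Col1a1 was higher in Ctcf heterozygous tissues, so the genes were chosen by their measured difference between genotypes, which is given here as a description. Counts of genes called between genotypes are printed beside it, and nothing about the 10 genes is read from them. Tissue differences among WT libraries and the shared movement of the genes between libraries of a group played no part in that choice.

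The study compared adult C57BL/6 mice with their normal Ctcf genes (WT, labelled control) with Ctcf haploinsufficient mice (Ctcf+/-), in which 1 functional copy remains. How the mutant allele was made is not given in the sources used here. Total RNA from brain, kidney, liver, muscle (the quadriceps femoris) and spleen was sequenced, with 3 WT and 3 Ctcf+/- libraries in each tissue and 30 libraries in all. The mice received no treatment that the labels record, and age is given only as adult.

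Fibrillar collagens (types I, III and V) assemble into the fibres that give connective tissue its tensile strength, and type V chains join type I fibres and limit their width. Collagen VI forms beaded microfilaments around cells and is prominent in muscle connective tissue. SPARC binds collagen and calcium and takes part in fibre assembly. Fibronectin exists as a cellular form laid down in the matrix and as a plasma form that hepatocytes secrete. Fibroblasts, smooth muscle cells, pericytes, hepatic stellate cells and meningeal cells are the usual sources of the collagens. CTCF, the protein lowered in these mice, is a zinc-finger factor that binds DNA and shapes chromatin loops.

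On GRCm38 the genes lie on 5 chromosomes. Col1a1 (ENSMUSG00000001506) spans chr11:94936224-94953042 on the plus strand and Col1a2 (ENSMUSG00000029661) spans chr6:4504814-4541544 on the plus strand. Col3a1 (ENSMUSG00000026043, chr1:45311538-45349706, plus) and Col5a2 (ENSMUSG00000026042, chr1:45374321-45503282, minus) face each other with 24614 bp between their ends. Col6a2 (ENSMUSG00000020241, chr10:76595762-76623630, minus) and Col6a1 (ENSMUSG00000001119, chr10:76708792-76726168, minus) are separated by 85161 bp. Col5a1 (ENSMUSG00000026837) spans chr2:27886425-28039514 (plus), Col6a3 (ENSMUSG00000048126) chr1:90765923-90843971 (minus), Sparc (ENSMUSG00000018593) chr11:55394500-55420080 (minus) and Fn1 (ENSMUSG00000026193) chr1:71585520-71653200 (minus). Exon bases shared with another annotated gene came to 1.44% of the exon length in Col3a1 and 2.50% in both Col5a1 and Fn1, and to none in the other 7. Fragments in those bases were left out by the authors' counting.

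RefSeq promoter sequences on GRCm38.p6 were present for 7 of the 10 genes, Col1a1, Col5a2 and Fn1 being the exceptions. The 250 bases before the start were searched on both strands for the letters CCAAT (the CCAAT box), for TATAA (as in a TATA box) and for GGGCGG (a GC box). The fibrillar chains Col1a2, Col3a1 and Col5a1 are shown because they differ in base composition and motifs although, as described below, Col1a2 and Col3a1 moved together between libraries. Sequences run 5′ to 3′ on the strand of the gene, and capitals mark motif letters on either strand. Only stretches without an annotated exon are printed. For Col1a2 the RefSeq start lies inside the gene span given above, which begins at chr6:4504814, and so does the printed stretch. Of the 250 bases of that window, 127 were in annotated exons.
Col1a2, chr6:4505370-4505492, plus strand: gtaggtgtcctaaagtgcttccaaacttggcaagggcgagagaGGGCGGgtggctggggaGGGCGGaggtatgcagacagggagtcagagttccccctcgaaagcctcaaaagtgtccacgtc
Col3a1, chr1:45311288-45311537, plus strand: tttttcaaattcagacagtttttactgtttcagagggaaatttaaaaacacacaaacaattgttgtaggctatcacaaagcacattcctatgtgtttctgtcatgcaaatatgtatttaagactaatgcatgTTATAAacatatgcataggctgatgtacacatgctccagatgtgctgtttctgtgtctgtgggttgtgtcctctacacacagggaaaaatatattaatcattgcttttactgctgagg
Col5a1, chr2:27886175-27886424, plus strand: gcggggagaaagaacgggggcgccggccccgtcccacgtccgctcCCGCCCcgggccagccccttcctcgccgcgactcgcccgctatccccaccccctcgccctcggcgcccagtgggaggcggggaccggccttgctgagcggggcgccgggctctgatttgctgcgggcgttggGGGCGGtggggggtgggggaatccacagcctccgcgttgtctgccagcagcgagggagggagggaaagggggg

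The Col3a1 window was 35.2% G and C, against a median of 52.4% over the 32851 promoters of the table, and the Col5a1 window was 76.4%. Col3a1 held TATAA on each strand, overlapping, at positions -118 to -113 from the start; 22.8% of all promoters held that motif. Col1a2 held GGGCGG at -205 to -200 and at -188 to -183, and CCAAT at -109 to -105 in the part not printed. Col5a1 held 2 copies of GGGCGG. Of all promoters, 32.7% held GGGCGG and 33.8% held CCAAT. One start of Col6a2 had 3 matches to GGGCGG, a second start of that gene had 1, and Col6a1, Col6a3 and Sparc had no match to any of the 3 motifs, which says only that those letters are not in these windows.

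Library sizes ran from 49.8 M to 131.6 M counts. Ctcf, the gene that checks the labels, was lower in every Ctcf+/- library than in any WT library of its tissue: 73.4 to 107 CPM (counts per 1 M, after TMM scaling) against 123 to 160 in spleen, 29.6 to 32.1 against 48.1 to 51.9 in brain, 25.8 to 31.1 against 45.6 to 50.2 in kidney, 31.1 to 37.9 against 47.1 to 55.3 in muscle, and 20.9 to 30.6 against 40.3 to 42.7 in liver. The muscle markers matched the labels: the summed level of Ckm, Acta1, Myh4, Mylpf and Tnnt3 was at least 228019 CPM in every muscle library and at most 158 CPM in any other tissue. The 10 matrix genes together took 0.00558% to 0.00870% of all counts in spleen, 0.0575% to 0.154% in muscle, 0.0625% to 0.103% in kidney, 0.0661% to 0.0770% in brain and 0.178% to 0.194% in liver. Most of the liver share was Fn1. The 8 collagens alone took 0.00914% to 0.0134% in liver, 0.0110% to 0.0179% in brain and 9.24e-04% to 0.00239% in spleen. They took 0.0326% to 0.0537% in kidney and 0.0362% to 0.106% in muscle. In these bulk samples fewer cells of a type and less RNA per cell cannot be told apart.

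**Figure D1:**
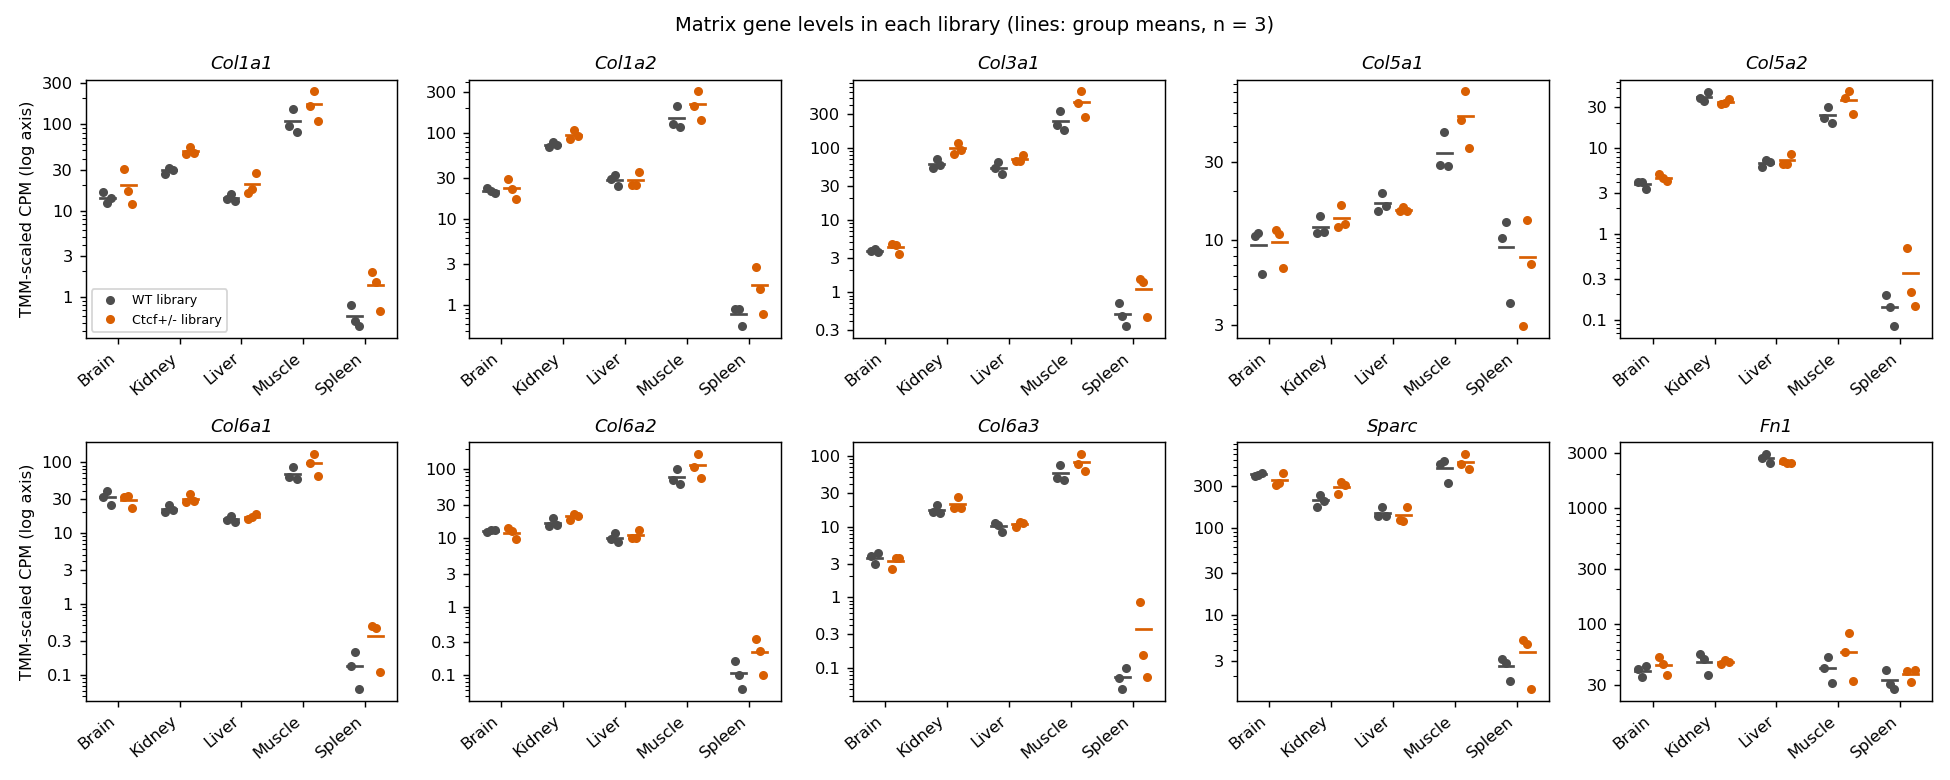
TMM-scaled CPM of each matrix gene (log axis, a panel per gene) in the 5 tissues, with WT libraries in grey, Ctcf+/- libraries in orange and group means as lines. The collagens and Sparc are lowest in spleen, and Fn1 stands far above its other levels in liver, where all 6 libraries lie between 2446 and 2939 CPM.

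Muscle and kidney held the most RNA of 4 of the 5 fibrillar chains among the WT tissues (for Col5a1, muscle and liver), and spleen held the least. On the scale of CPM per kb of exon, used for every comparison between genes, 8 of the 10 genes were highest in muscle and all 10 were lowest in spleen. The exceptions at the top were Col5a2, highest in kidney, and Fn1, highest in liver. Of the 100 differences between tissue pairs (10 genes, 10 pairs), 84 were called by edgeR's quasi-likelihood test at an adjusted p below 0.05. Tissue differences are common among all genes, and 54.1% to 79.8% of the 22933 genes tested were called in a given pair.

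Col1a1, which encodes the alpha 1 chain of type I collagen, had WT levels of 96.1, 152 and 82.3 CPM in muscle, 26.8, 31.1 and 29.8 in kidney, 16.3, 12.2 and 14.0 in brain, 13.5, 15.6 and 12.9 in liver, and 0.796, 0.530 and 0.458 in spleen. Muscle and kidney each stood clear of the tissue below, whereas brain and liver overlapped. Muscle exceeded kidney 4.11-fold (log2 difference 2.04, SE 0.22, edgeR adjusted p = 1.47e-06), and kidney exceeded brain 2.04-fold (1.03, SE 0.22, edgeR adjusted p = 6.99e-04). The brain to liver difference did not pass (0.06, SE 0.22, edgeR adjusted p = 0.820). Liver exceeded spleen 23.8-fold. Col1a2, the alpha 2 chain of the same trimer, followed nearly the same order with 12.3 ± 4.02 CPM per kb in muscle (SD, n = 3), 5.93 ± 0.423 in kidney, 2.31 ± 0.346 in liver, 1.73 ± 0.111 in brain and 0.0633 ± 0.0156 in spleen, and only the liver to brain step did not pass (edgeR adjusted p = 0.122).

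Col3a1, the chain of type III collagen found in pliable tissues and vessel walls, spread more widely. Its WT libraries read 211, 327 and 176 CPM in muscle, 53.3, 70.6 and 57.8 in kidney, 52.9, 64.3 and 43.2 in liver, 3.70, 3.97 and 3.56 in brain, and 0.714, 0.462 and 0.338 in spleen. Kidney and liver overlapped (1.15-fold, edgeR adjusted p = 0.524). Liver exceeded brain 13.9-fold (log2 difference 3.79, SE 0.28, edgeR adjusted p = 1.24e-08). On this TMM scale the Col1a1 levels of brain and liver had overlapped.

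The type V chains Col5a1 and Col5a2 did not follow each other. Col5a1 ranged only from 4.02 ± 1.16 CPM per kb in muscle to 1.07 ± 0.528 in spleen, and the steps from liver to kidney, kidney to brain and brain to spleen did not pass (edgeR adjusted p = 0.269, 0.351 and 0.824). Col5a2 read 38.2, 36.0 and 45.5 CPM in kidney, 22.8, 30.1 and 19.9 in muscle, 6.01, 7.22 and 6.95 in liver, 4.08, 4.0 and 3.40 in brain, and 0.194, 0.143 and 0.0845 in spleen, with no overlap between neighbouring tissues. Kidney exceeded muscle 1.5-fold (log2 difference 0.59, SE 0.19, edgeR adjusted p = 0.0137). That call was lost without WT kidney library 3 (0.49) or WT muscle library 3 (0.47), and in the Ctcf+/- libraries the difference was -0.10. In spleen Col5a1 was at 10.3, 12.8 and 4.12 CPM, while the other 7 collagen genes were each below 1 CPM in all 3 WT libraries.

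All 3 collagen VI chains were highest in muscle. Col6a1, the alpha 1 chain, was at 62.7, 87.0 and 59.2 CPM there, 32.4, 38.9 and 25.4 in brain, 19.9, 24.7 and 21.6 in kidney, 15.4, 17.7 and 14.3 in liver, and 0.133, 0.210 and 0.0633 in spleen. Muscle exceeded brain 2.32-fold (edgeR adjusted p = 2.62e-04), and brain exceeded kidney 1.49-fold with an adjusted p of 0.0378 in edgeR. The brain to kidney call was lost without WT brain library 1 or 2 or any of the 3 WT kidney libraries, and the difference was -0.02 in the Ctcf+/- libraries. Col6a2 was 5.16-fold higher in muscle than in kidney (log2 difference 2.37, SE 0.22), and its kidney, brain and liver levels of 1.98, 1.52 and 1.21 CPM per kb did not differ step by step (edgeR adjusted p = 0.145 and 0.130). Col6a3 fell at every step, from 4.76 ± 1.31 CPM per kb in muscle through 1.45 ± 0.208 in kidney, 0.847 ± 0.134 in liver and 0.306 ± 0.0529 in brain to 0.00614 ± 0.00202 in spleen, where its WT libraries held 7, 6 and 14 counts.

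Sparc had the highest level per kb of the 10 genes in brain, kidney and muscle. Its WT libraries read 533, 577 and 320 CPM in muscle and 391, 398 and 427 in brain, which overlapped (edgeR adjusted p = 0.204). Without WT muscle library 3 that difference was 0.56 and was called. Brain exceeded kidney 2.01-fold (log2 difference 1.01, SE 0.23, edgeR adjusted p = 0.00138). Fn1 was at 2724, 2939 and 2463 CPM in liver and between 27.5 and 54.6 CPM in the 12 other WT libraries. Liver exceeded kidney 56.8-fold (5.83, SE 0.27, edgeR adjusted p = 2.44e-10). The 4 other tissues overlapped along their order, and none of the 3 steps between them passed (edgeR adjusted p = 0.890, 0.471 and 0.183).

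**Figure D2:**
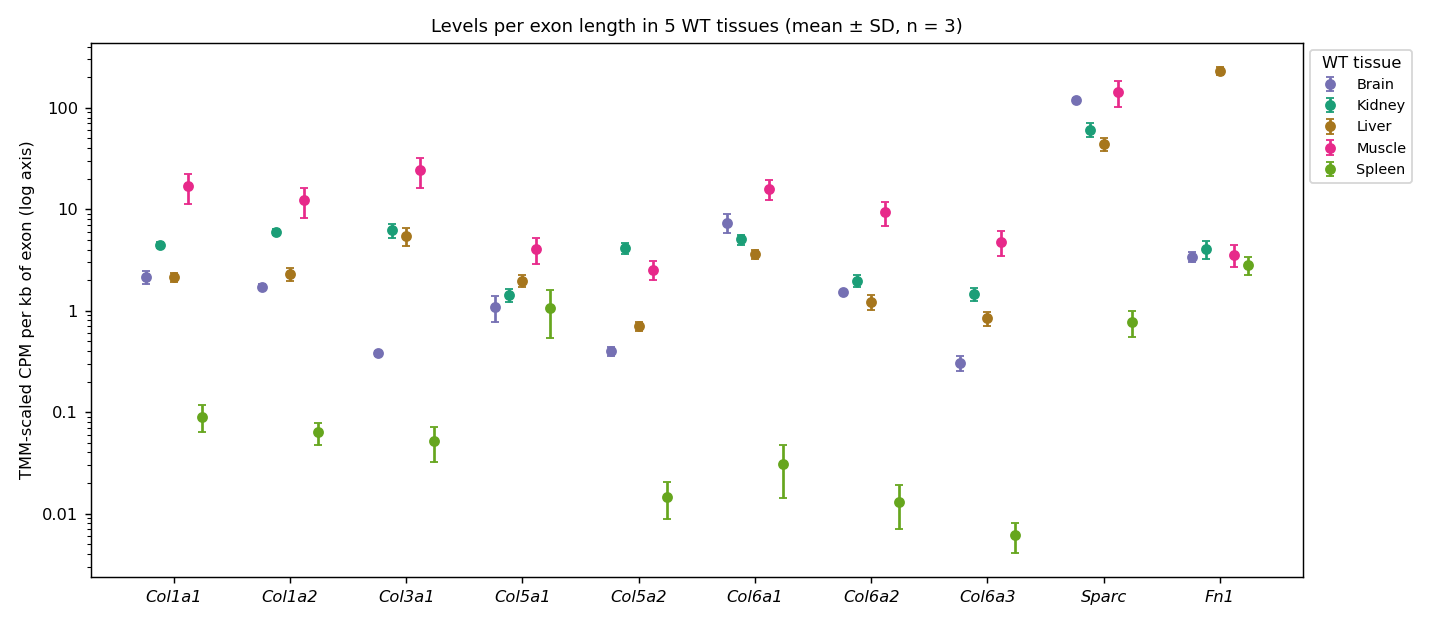
Mean ± SD (n = 3) of TMM-scaled CPM per kb of exon in WT libraries, log axis, with a colour per tissue. Spleen lies lowest for all 10 genes, about level with brain for Col5a1 and Fn1, and liver Fn1 at 232 CPM per kb is the highest value shown.

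Counted by tissue pair, with the share of all genes called in either direction given after each, muscle was called above spleen for 10 of 10 (75.2%), above liver for 9 (64.2%), above kidney for 8 (64.4%) and above brain for 8 (72.3%). Liver was called above spleen for 10 (72.9%), kidney above spleen for 9 (75.5%) and brain above spleen for 8 (79.8%). Kidney was called above brain for 5 and below it for 2 (71.4%), liver above brain for 5 and below it for 2 (73.2%), and kidney above liver for 5 and below it for 1 (54.1%). The order of the 5 tissues was identical in the Ctcf+/- libraries for 6 of the 10 genes.

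The tissue comparisons depend on how libraries of different tissues are put on a common scale. TMM set the effective size of brain, kidney and spleen libraries at 1.23 to 1.60 times their total and that of liver and muscle libraries at 0.579 to 0.681 times. With total counts in place of TMM the median difference of all genes moved by 1.26 on the log2 scale between brain and muscle and by 1.16 between kidney and muscle. On that scale muscle was highest for 6 genes, brain for Col6a1 and Sparc, and spleen was lowest for 8, with liver lowest for Col5a1 and muscle for Fn1. Brain was then called above liver for 5 genes and below it for 2. Among steps between neighbouring tissues, Col1a1 brain over liver became 1.17 and was called with total counts. The muscle over kidney step of Col1a2 went from 1.18 to 0.02, and the liver over brain step of Col6a3 to 0.32, and both lost their call. Calls were gained for kidney over liver in Col3a1 (1.21), Col6a1 (1.51) and Sparc (1.48), for brain over liver in Col6a2 (1.49) and for kidney over muscle in Fn1 (1.21). Ratios between genes of 1 library do not involve this scale.

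Those ratios separated the tissues. Col1a2 over Col1a1, the chains that build type I collagen together with more alpha 1 than alpha 2, was 1.33 ± 0.0243 per kb in WT kidney (SD, n = 3), 1.08 ± 0.0741 in liver, 0.808 ± 0.0929 in brain, 0.737 ± 0.0334 in muscle and 0.714 ± 0.161 in spleen. Col3a1 over Col1a1 was 0.180 ± 0.0341 in brain, 0.559 ± 0.0572 in spleen, 1.38 ± 0.119 in kidney, 1.45 ± 0.0207 in muscle and 2.54 ± 0.264 in liver. Col5a2 over Col5a1 was 2.99 ± 0.678 in kidney, against 0.638 ± 0.0602 in muscle, 0.385 ± 0.0927 in brain and 0.357 ± 0.0277 in liver, and 0.0149 ± 0.00441 in spleen. Kidney was thus the tissue in which Col5a2 exceeded Col5a1 in every WT library.

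Within collagen VI, Col6a2 over Col6a1 lay between 0.545 and 0.614 in the WT muscle libraries, between 0.321 and 0.408 in kidney and liver, and between 0.176 and 0.266 in brain. Col6a3 over Col6a1 lay between 0.214 and 0.315 in WT kidney, liver and muscle and between 0.0279 and 0.0605 in brain. The WT spleen libraries, with few counts of these genes, ran from 0.0879 to 0.570 for the latter ratio. Exon lengths were those of the annotation, so a chain whose transcripts use only some annotated exons has its level per kb understated.

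**Figure D3:**
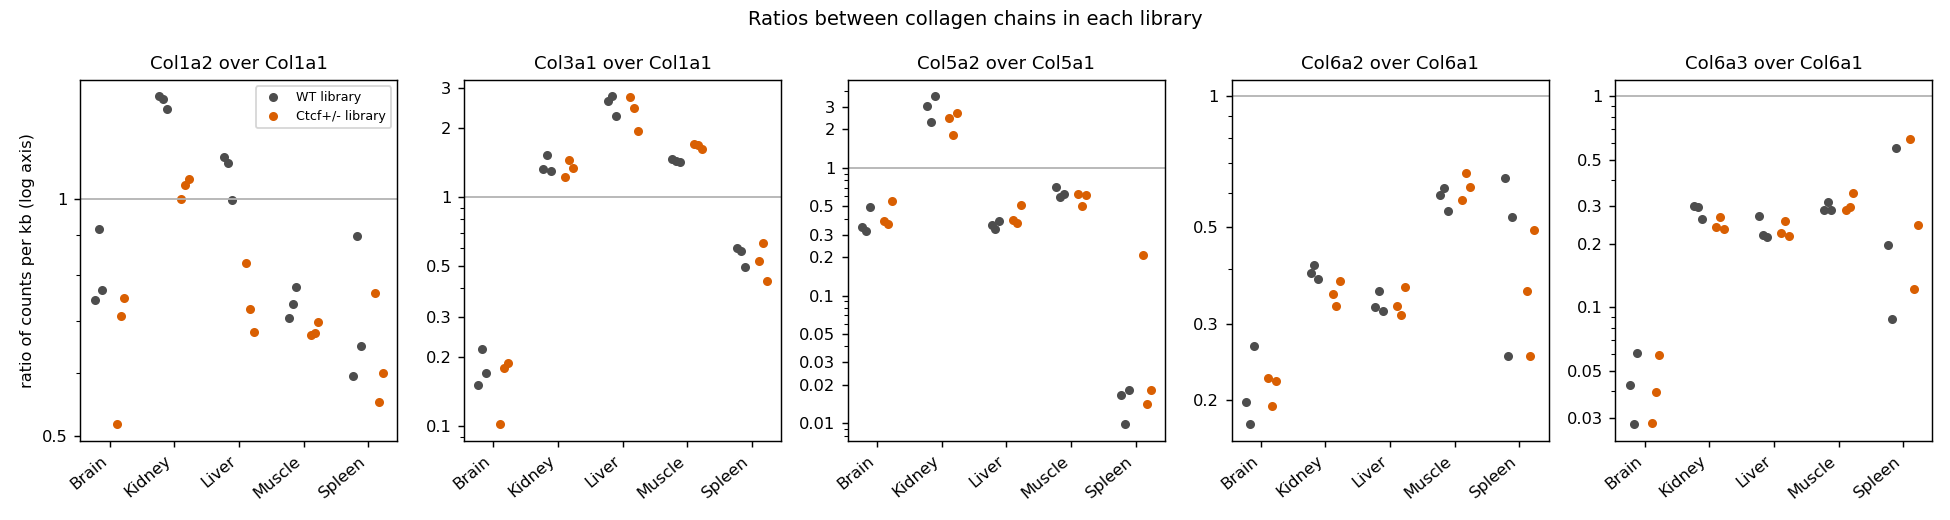
Ratio of counts per kb between collagen chains in each library (log axis, a panel per ratio), WT in grey and Ctcf+/- in orange, with a line at 1 (equal levels). Col5a2 over Col5a1 exceeds 1 in kidney only, and Col1a2 over Col1a1 is lower in Ctcf+/- than in WT kidney and liver without overlap.

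In the comparison between genotypes, Col1a1 had a higher mean in Ctcf+/- than in WT in all 5 tissues. In kidney the WT libraries read 26.8, 31.1 and 29.8 CPM and the Ctcf+/- libraries 45.6, 54.9 and 46.1. In liver they read 13.5, 15.6 and 12.9 against 16.0, 18.0 and 27.3. The groups did not overlap in these 2 tissues. In muscle the values were 96.1, 152 and 82.3 against 165, 241 and 110, in brain 16.3, 12.2 and 14.0 against 30.3, 16.8 and 12, and in spleen 0.796, 0.530 and 0.458 against 1.94, 1.47 and 0.694. In each of these 3 tissues 2 of the 3 Ctcf+/- libraries lay above all WT libraries. The log2 fold changes, Ctcf+/- over WT, were 0.74 in kidney (SE 0.10), 0.55 in liver (SE 0.21), 0.64 in muscle (SE 0.31), 0.47 in brain (SE 0.30) and 1.21 in spleen (SE 0.44). Single libraries carried much of some values. Without Ctcf+/- library 1 the brain value was 0.03, and without Ctcf+/- library 3 it was 0.73. The muscle value was 0.31 without Ctcf+/- library 2, and the liver value was 0.28 without Ctcf+/- library 3. In kidney it stayed between 0.65 and 0.79 whichever library was left out.

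All 10 genes passed the filter on low counts in every tissue, and 0 of 10 were called between genotypes in any tissue by edgeR. Of all tested genes, edgeR called 0.242% in spleen, 0.0249% in muscle, 0.0211% in kidney, 0.0193% in liver and 0.0157% in brain. In kidney the deviations of WT and Ctcf+/- libraries of equal number correlated weakly (r = 0.211, 0.194 and 0.212). The labels do not say what the number marks. A fit of kidney with the replicate number as a block called Col1a1 and Col3a1 (0.111% of all genes were called), as did DESeq2 (1.02% of all genes). Nothing is read from any of these counts, since this contrast chose the genes.

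In 1 fit of all 30 libraries with tissue as a term, the log2 fold change was 0.72 for Col1a1 (SE 0.14), 0.65 for Col3a1 (SE 0.15) and between 0.15 (Fn1 and Col5a1) and 0.41 (Col1a2 and Col6a3) for the others. The value was above 0 for 10 of 10 genes, against 55.0% of all genes, and the median was 0.36 against 0.01. Of the 10 genes 1, Col1a1, was called there and 0.194% of all 24262 genes were, which again restates the choice. With any of the 5 tissues left out 0 of 10 were called, and Col1a1 was between 0.60 and 0.76. The labels do not say whether libraries of equal number in different tissues come from 1 mouse, and that fit treats all 30 as independent.

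**Figure D4:**
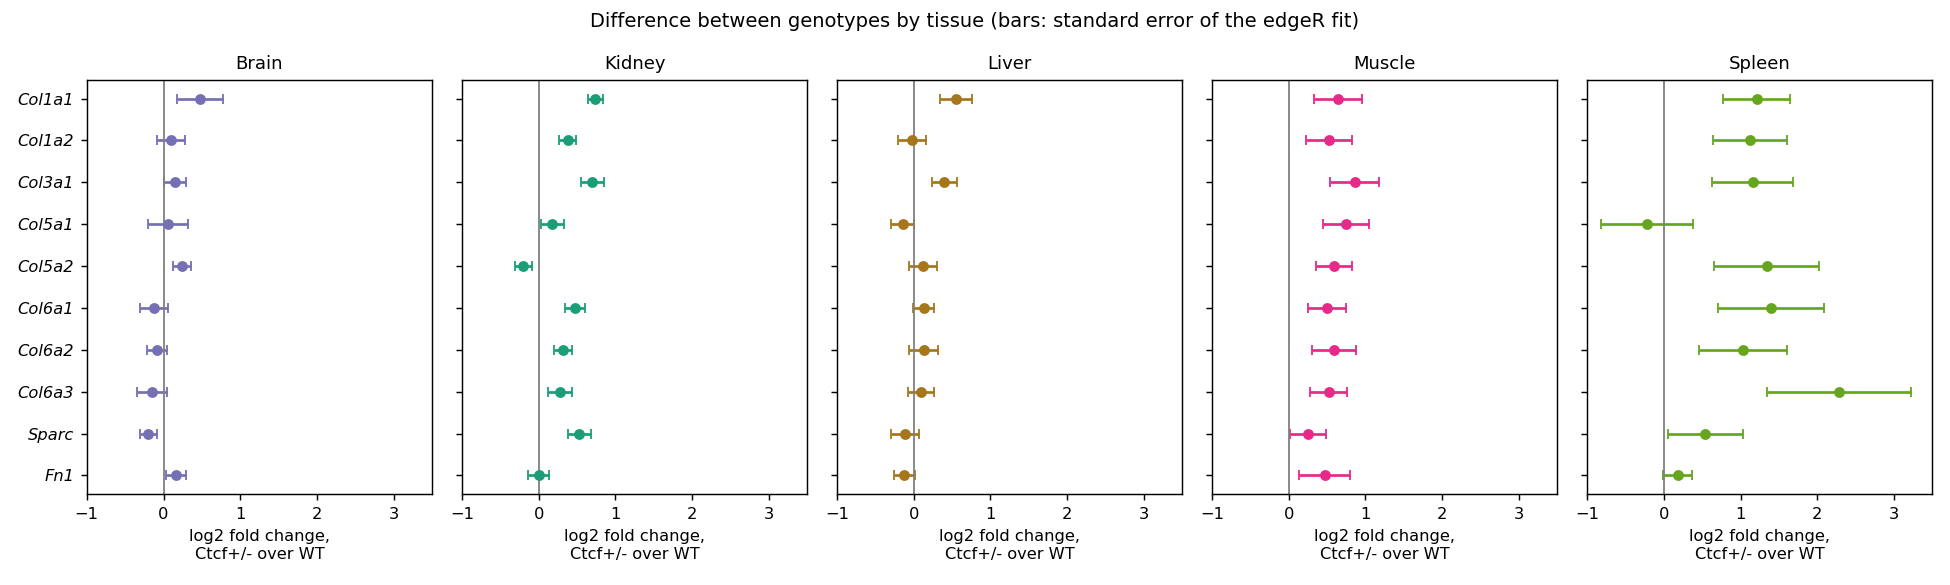
Log2 fold change, Ctcf+/- over WT, of each matrix gene in each tissue, with bars for the standard error of the edgeR fit. All 10 points lie above 0 in muscle, between 0.25 and 0.86, and the widest bars belong to spleen.

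Kidney showed the tightest separation. Col3a1 read 53.3, 70.6 and 57.8 CPM in WT against 83.5, 119 and 92.7 in Ctcf+/- (log2 fold change 0.70, SE 0.15). Col1a2 read 68.5, 79.0 and 73.6 against 86.8, 108 and 93.0 (0.38, SE 0.11). Col6a1 read 19.9, 24.7 and 21.6 against 27.8, 36.0 and 28.9 (0.48, SE 0.13), and Sparc 174, 238 and 201 against 242, 332 and 310 (0.53, SE 0.15). With Col1a1, 5 of 10 genes had Ctcf+/- libraries above all WT libraries without overlap, against 6.15% of all genes in kidney. Col5a2 went the other way (38.2, 36.0 and 45.5 against 32.9, 33.4 and 37.6, log2 fold change -0.20, SE 0.11), and Fn1 averaged 47.0 against 46.9 CPM. Values above 0 were found for 8 of 10 genes, against 50.1% of all genes, and the median was 0.35 against 0.00.

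The summed macrophage markers were also higher in Ctcf+/- kidney. Csf1r, Adgre1, C1qa, C1qb, Cd68 and Mrc1 summed to 105 to 137 CPM in WT kidney and 141 to 169 in Ctcf+/- kidney, and all 6 had log2 fold changes above 0. The 10 fibroblast markers summed to 12674 to 16357 against 15414 to 18761 CPM, 98.3% of it from Gpx3, and 8 of 10 lay above 0. The tendon markers summed to 11.8 to 14.1 against 15.1 to 18.5 CPM, 50.8% of it from Fmod, itself a matrix gene, and 3 of the 5 tested lay above 0 with a median of 0.01. Smooth muscle and pericyte markers had 9 of 10 above 0, with sums of 159 to 196 against 170 to 234 CPM. No marker of these lists was at 0, and the part of these cells in the collagen values was not tested.

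In liver Col3a1 read 52.9, 64.3 and 43.2 CPM in WT against 65.6, 66.3 and 79.5 (log2 fold change 0.40, SE 0.16). With Col1a1 it was among the 2 of 10 genes whose groups did not overlap, against 4.68% of all genes. Col1a2 differed little, with 29.0, 32.8 and 24.2 against 25.1, 24.7 and 35.1 CPM (-0.02, SE 0.18). Fn1 read 2724, 2939 and 2463 against 2560, 2457 and 2446 (-0.12, SE 0.14). Values above 0 were found for 6 of 10, against 47.6% of all genes, and the median was 0.11 against -0.01. The mesothelium markers summed to 15 to 21.1 CPM in WT and 19.9 to 50.8 in Ctcf+/- liver, with 6 of 6 above 0 and the highest value in the library that also had the most Col1a1. The 7 hepatic stellate markers summed to 259 to 273 against 209 to 230 CPM, with 0 of 7 above 0. Endothelial markers were lower as well, at 211 to 249 against 154 to 207 CPM with 0 of 8 above 0, and macrophage markers had 0 of 6 above 0 (415 to 691 against 422 to 465 CPM). The tendon sum was higher without overlap, 5.48 to 8.85 against 10.8 to 17.6 CPM, 83.3% of it from Fmod, with Tnmd and Kera at 0 in both genotypes. No other marker of these lists was at 0, and their part was not tested.

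In muscle all 10 genes had values above 0, against 48.4% of all genes, with a median of 0.56 against -0.01. Col3a1 had the largest value, 211, 327 and 176 CPM in WT against 420, 607 and 265 (log2 fold change 0.86, SE 0.32), followed by Col5a1 with 28.7, 45.5 and 28.2 against 54.2, 81.1 and 36.7 (0.75, SE 0.30). The groups overlapped for all 10 genes, 0 of 10 against 5.91% of all genes. Ctcf+/- library 3 lay below WT library 2, the highest WT library, for each of them. For Col1a2 (210 against 211 CPM) and Sparc (538 against 577) Ctcf+/- library 1 did as well. Adipocyte markers differed more: Adipoq, Plin1, Cidec, Lep, Cfd and Retn summed to 40.1 to 116 CPM in WT and 206 to 541 in Ctcf+/- muscle, a 4.77-fold higher mean, with 6 of 6 above 0 and none at 0. Macrophage markers summed to 29.5 to 49.5 against 43.3 to 86.4 CPM with 6 of 6 above 0. The fibroblast sum was 645 to 831 against 645 to 848 CPM, 60.0% of it from Gpx3, while 8 of its 10 markers lay above 0 with a median of 0.42. Smooth muscle and pericyte markers were lower without overlap (5786 to 6569 against 5335 to 5640 CPM, 85.9% from Des) with 2 of 10 above 0. The tendon sum was 68.4 to 105 against 50.9 to 105 CPM with 2 of 7 above 0. None of these markers was at 0. Among the Ctcf+/- muscle libraries, the collagens and the macrophage and tendon sums were highest in library 2. The adipocyte and fibroblast sums were highest in library 1, and the smooth muscle and pericyte sum in library 3. The part of these cells was not tested.

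In spleen 9 of 10 values were above 0, against 48.9% of all genes, and the median was 1.14 against -0.00, but the groups overlapped for every gene, 0 of 10 against 4.35% of all genes. Most counts were low: Col1a1 had 78, 63 and 65 counts in WT against 278, 153 and 95, and Col6a3 had 7, 6 and 14 against 122, 16 and 10. Without Ctcf+/- library 1 the log2 fold change of Col6a3 went from 2.28 to 0.60, that of Col5a2 from 1.34 to 0.36 and that of Col1a1 from 1.21 to 0.87. Col5a1, at the highest level in spleen of the collagens among the 10 genes, read 10.3, 12.8 and 4.12 CPM against 2.95, 13.3 and 7.10 (-0.22, SE 0.60). Fn1 read 40.3, 30.3 and 27.5 against 38.9, 31.6 and 40.4 (0.18, SE 0.19).

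RNA of other tissues was present in spleen, and its kidney and liver markers differed by genotype. Kidney markers (Umod, Slc34a1, Kap, Nphs1, Slc12a1, Aqp2) summed to 0.0925 to 0.265 CPM in WT spleen, with Umod, Kap and Aqp2 at 0, and to 7.43 to 15.5 in Ctcf+/- spleen. Liver markers (Alb, Apoa1, Ttr, Cyp2e1, Ahsg, Serpina3k) summed to 24.2 to 30.8 against 0.0630 to 0.251 CPM, with Ahsg at 0 in the latter. The kidney markers in Ctcf+/- spleen stood at 0.0705% of their level in Ctcf+/- kidney. That share of the kidney level of Col1a1 is 0.0345 CPM and of Col3a1 0.0695 CPM, where Ctcf+/- spleen held 1.37 and 1.12 CPM. Pancreas markers summed to 156, 92.5 and 14.8 CPM in WT spleen and to 19.5, 1204 and 17.5 in Ctcf+/- spleen. Fibroblast markers ran from 8.74 to 30.0 and from 25.4 to 32.7, with 5 of the 7 tested above 0. Of those 7, edgeR called 1, against 0.242% of all genes. Smooth muscle and pericyte markers ran from 6.05 to 7.26 and from 6.70 to 9.77. Mesothelium markers ran from 0.415 to 0.632 and from 0.526 to 1.62. No pancreas, fibroblast, smooth muscle and pericyte or mesothelium marker was at 0. The part of these tissues and cells in the spleen values was not tested.

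Brain showed the smallest values, with a median of 0.08 against -0.00 for all genes and 6 of 10 above 0, where 48.2% of all genes were. Col5a2 was the gene without overlap (4.08, 4.0 and 3.40 CPM against 4.99, 4.47 and 4.14), 1 of 10 against 3.73% of all genes. Sparc read 391, 398 and 427 against 309, 327 and 424 CPM (log2 fold change -0.20, SE 0.11). The meninges markers summed to 116 to 125 CPM in WT and 110 to 134 in Ctcf+/- brain. Endothelial markers had 8 of 8 above 0 (63.9 to 83.5 against 77.8 to 92.8 CPM), and the part of these cells was not tested. In each tissue 0 of 10 genes had all Ctcf+/- libraries below all WT libraries, against 4.10% of all genes in brain, 5.28% in kidney, 6.28% in muscle, 4.31% in liver and 2.29% in spleen.

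The balance of the type I chains also differed between genotypes. Col1a2 over Col1a1 per kb was 1.35, 1.34 and 1.30 in WT kidney and 1.0, 1.04 and 1.06 in Ctcf+/- kidney, 1.13, 1.11 and 0.995 against 0.828, 0.724 and 0.678 in liver, and 0.706, 0.734 and 0.773 against 0.671, 0.675 and 0.697 in muscle. The groups did not overlap in these 3 tissues. In brain (0.808 ± 0.0929 against 0.658 ± 0.123) and spleen (0.714 ± 0.161 against 0.637 ± 0.108) they overlapped. The mean ratio was thus lower in Ctcf+/- in all 5 tissues. Because Col1a1 was chosen for its difference, this ratio carries that choice and is not tested. Col3a1 over Col1a1 went the other way in muscle, with 1.43 to 1.47 in WT and 1.62 to 1.70 in Ctcf+/-. In the other 4 tissues the groups overlapped. The mean there was lower in Ctcf+/-, at 0.157 against 0.180 in brain and 1.34 against 1.38 in kidney. Liver gave 2.38 against 2.54 and spleen 0.528 against 0.559.

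The matrix genes moved together between libraries of the same tissue and genotype. To measure this, the mean of each group was taken away from log2 CPM, which removes tissue and genotype. Over the 30 libraries the 45 pairs among the 10 genes had a median Pearson r of 0.667, from -0.418 to 0.965, with 43 above 0. Without spleen the median was 0.727 and all 45 were above 0, from 0.315 to 0.972. Col3a1 with Col6a2 gave 0.965, Col1a2 with Col6a2 0.943 and Col1a1 with Col1a2 0.923. The lowest was Col5a1 with Col6a3 at -0.418, which was 0.390 without spleen. The 9 other genes had a median r of 0.729 with Col1a1, where all genes had 0.0107, and a median r of 0.412 with Fn1. These points share library, depth and scaling, so the values are descriptions.

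Muscle made the shared movement plain. In both genotypes library 2 was highest and library 3 lowest for all 10 genes, an order that 6.01% of the 16064 genes tested in muscle had. The median deviation of the 10 genes was 0.42 (log2) in WT library 2 and -0.31 in WT library 3, and 0.55 and -0.55 in Ctcf+/- libraries 2 and 3, while the median of all genes was 0.00 in each. Spleen reached 0.68 in Ctcf+/- library 1 and -0.88 in Ctcf+/- library 3. In brain, kidney and liver the median deviation stayed between -0.30 and 0.22.

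**Figure D5:**
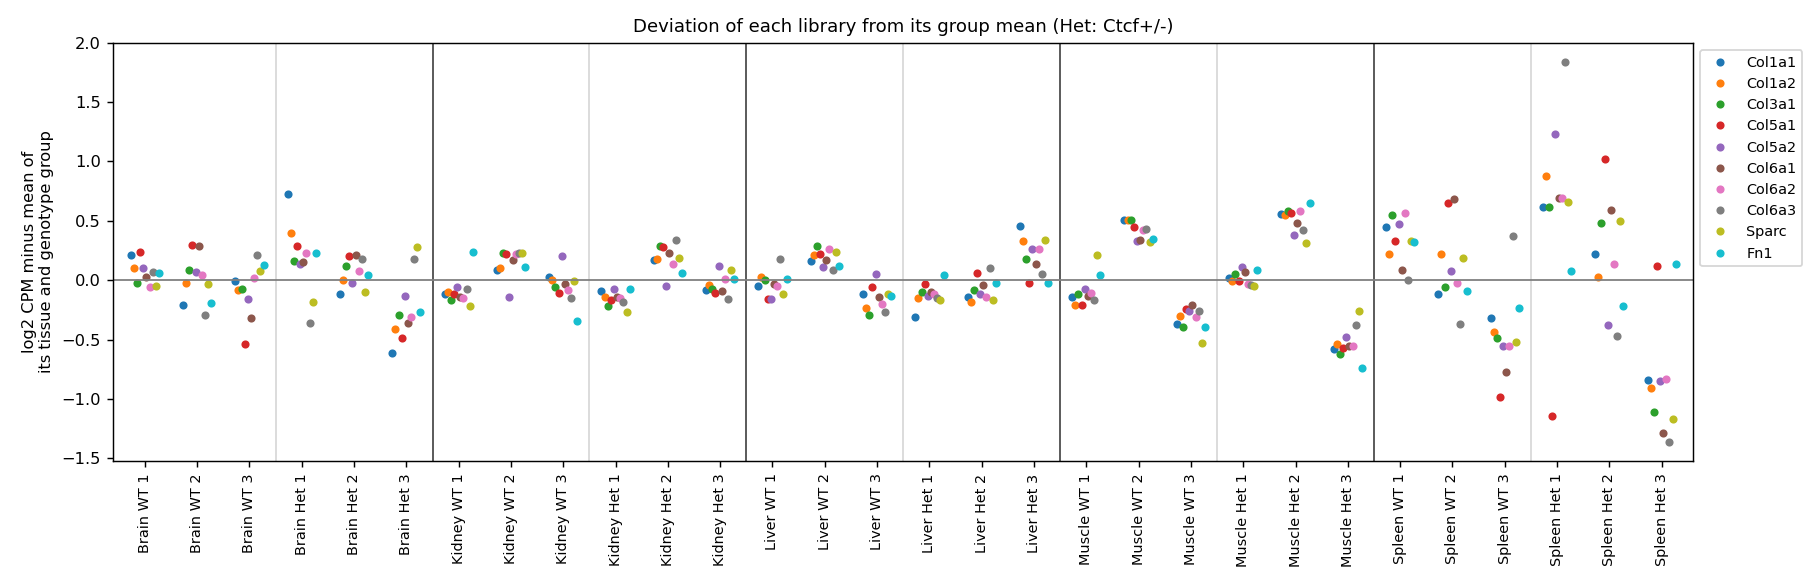
Log2 CPM of each matrix gene (colours) minus the mean of its tissue and genotype group, for each of the 30 libraries. In muscle library 2 of each genotype lies above 0 and library 3 below 0 for all 10 genes, and the spleen libraries spread most.

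Among genes with a mean of at least 1 CPM, those most like Col1a1 in these deviations over 30 libraries were Mrc2 (r = 0.861), a receptor that takes up collagen, Pla1a (0.829), a phospholipase, Bgn (0.818), the proteoglycan biglycan, Anxa3 (0.809), an annexin, and Ltbp4 (0.798), which binds latent TGF-beta. Mrc2 lies at chr11:105292643-105351139, Bgn at chrX:73483602-73495933 and Ltbp4 at chr7:27305136-27337692. The nearest to Fn1 were Fgl2 (0.813), a fibrinogen-like protein, Olfml3 (0.773), a secreted glycoprotein, and Slamf8 (0.766), an immune cell receptor. None of the genes nearest to Col1a1 was among those nearest to Fn1.

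The other genes of the matrix pathway were followed through 6 lists with 188 genes: other collagens, collagen folding and cross-linking, other glycoproteins and proteoglycans, receptors, proteases and their inhibitors, and the TGF-beta pathway. edgeR called 0 of them between genotypes in each tissue and for the difference shared over tissues. At an unadjusted p below 0.05 it marked 42 of 180 tested in kidney (23.3%, against 6.44% of all genes), 22 of 149 in spleen (14.8% against 3.52%), 20 of 180 in muscle (11.1% against 6.45%), 13 of 156 in liver (8.33% against 4.56%) and 11 of 183 in brain (6.01% against 2.96%). In kidney 37 of the 42 were higher in Ctcf+/-, where 4.0% of all genes were marked and higher, and 5 were lower. Over all tissues 50 of 188 were marked, all 50 of them higher (26.6%, against 5.91% of all genes marked and 4.33% marked and higher). The lists were chosen with earlier results of these data known, so these shares are descriptions. Genes of the lists can also move together between libraries, as Mrc2, Bgn and Ltbp4 did with Col1a1. The fit over all tissues treats all 30 libraries as independent.

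By list, the kidney counts were 9 of 31 other collagens, 15 of 53 glycoproteins and proteoglycans, 6 of 24 proteases and inhibitors, 4 of 17 TGF-beta pathway genes, 5 of 31 folding and cross-linking genes and 3 of 24 receptors. The median log2 fold change of the 188 genes was 0.09 in kidney, 0.15 in muscle, 0.26 in spleen, 0.05 in brain and -0.00 in liver. In spleen the glycoproteins and proteoglycans had a median of 0.67 and 36 of 41 above 0, whereas folding and cross-linking genes had 0.02 and 15 of 28.

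Calls among these genes came from other tools or settings, and the genes are named here after their values were seen. In kidney DESeq2 called 11 of 188, 9 higher and 2 lower, against 1.02% of all genes. Itga2, a subunit of a collagen-binding integrin, read 2.16, 1.53 and 2.28 CPM in WT against 0.224, 0.301 and 0.565 in Ctcf+/- kidney (log2 fold change -2.45, SE 0.34, DESeq2 adjusted p = 1.38e-09), and was also called in the edgeR fit with the replicate block (adjusted p = 0.0386) and with a filter of at least 1 count (edgeR adjusted p = 0.00821). Col4a6, a basement membrane collagen, read 4.67, 4.41 and 4.95 against 1.90, 3.27 and 2.65 (-0.85, SE 0.20, DESeq2 adjusted p = 0.00651). Among those higher, Fmod, a proteoglycan that binds fibrillar collagen, read 6.16, 6.14 and 6.06 against 9.77, 8.40 and 8.86 (0.56, SE 0.12, DESeq2 adjusted p = 9.48e-04), and Mmp2, a gelatinase, 4.01, 4.42 and 5.30 against 6.50, 6.98 and 6.54 (0.54, SE 0.15, DESeq2 adjusted p = 0.0306). The other 7 were Col6a5, Col8a2, Itgb3, Mfap4, Sparcl1, Tgfbi and Thbs2, with log2 fold changes from 0.53 to 1.44, and the groups did not overlap for any of the 11.

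Outside kidney DESeq2 called 1 gene of these lists in liver (0.463% of all genes), 1 in muscle (0.990%) and 1 in brain (0.146%). Fmod in liver read 4.40, 7.22 and 6.21 CPM against 8.78, 12.6 and 15 (1.02, SE 0.27, DESeq2 adjusted p = 0.0396). Col6a6, another collagen VI chain, read 4.83, 6.10 and 6.91 against 9.65, 13.7 and 8.79 in muscle (0.85, SE 0.23, DESeq2 adjusted p = 0.0276). Eng, a TGF-beta co-receptor of endothelium, read 11.4, 11.1 and 12.5 against 16.0, 15.4 and 14.5 in brain (0.40, SE 0.09, DESeq2 adjusted p = 0.0185). In spleen it called 0 of 188 (1.01% of all genes), whereas the edgeR fit of all 30 libraries, which shares 1 estimate of the spread between tissues, called 10 there, 9 higher and 1 lower (1.03% of all genes). The lower one was Sdc2, a syndecan, at 0.275, 0.462 and 0.542 CPM against 0.168, 0.145 and 0.110 (-1.63, SE 0.23, edgeR adjusted p = 2.03e-04). The higher ones were at low levels too. Hspg2, the basement membrane proteoglycan perlecan, ran from 1.29 to 1.76 against 1.80 to 3.10 (0.78, SE 0.18, edgeR adjusted p = 0.0289), and Fbln5, an elastic fibre protein, read 0.214, 0.193 and 0.0845 against 1.17, 0.501 and 0.358 (2.08, SE 0.35, edgeR adjusted p = 0.00150). Col4a3, Itgb6, Lamb1, Lamb2, P3h4, Timp3 and Tnc made up the rest, and the groups overlapped only for Lamb2. Kidney markers were also higher in these Ctcf+/- spleen libraries (7.43 to 15.5 CPM), and their part was not tested. Over all tissues DESeq2 called Fap, a fibroblast protease (0.45, SE 0.12), and Podn, a small proteoglycan (0.42, SE 0.11), against 0.755% of all genes.

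Beside the 10, the matrix genes with the highest WT levels, in CPM per kb, were partly shared between tissues. Among other collagens Col18a1 led in liver at 231 ± 24.9, level with Fn1 there (232 ± 20.4), Col4a1 led in muscle at 36.9 ± 10.3 and in kidney at 29.1 ± 1.92, Col4a2 in brain at 4.84 ± 1.35 and Col11a2 in spleen at 2.44 ± 0.195. Type IV chains form basement membranes. In muscle the level of Col4a1 exceeded that of Col3a1, at 24.2 ± 8.04 the highest of the fibrillar chains. Among glycoproteins and proteoglycans Sparcl1, a relative of Sparc, led in brain at 553 ± 44.0, Vtn, the plasma protein vitronectin, in liver at 2170 ± 497, Dcn (decorin) in muscle at 109 ± 16.4, Fbln5 in kidney at 27.8 ± 2.66 and Agrn in spleen at 2.04 ± 0.859.

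P4hb, a subunit of prolyl 4-hydroxylase, led the folding genes in brain, kidney, liver and muscle, from 39.2 ± 2.86 in brain to 807 ± 124 in liver, and Ppib, a prolyl isomerase of the endoplasmic reticulum, led in spleen at 49.6 ± 8.74. Sdc4 led the receptors in brain, kidney and liver (19.7 ± 2.87 to 238 ± 67.6), Itgb1 in muscle (59.6 ± 2.80) and Cd47 in spleen (55.3 ± 12.2). Timp2 led the proteases and inhibitors in brain (71.9 ± 6.89), Plau in kidney (343 ± 13.7), Ctsl in liver (452 ± 15.1) and muscle (108 ± 8.82), and Mmp9 in spleen (13.8 ± 10.2). In the TGF-beta pathway Ski led in brain (19.1 ± 0.951), Eng in kidney (25.6 ± 1.85) and liver (30.6 ± 1.75), Smad3 in muscle (21.0 ± 5.14) and Tgfbr2 in spleen (33.5 ± 3.27).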

How the data were processed

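The authors deposited raw fragment counts per gene, a table for each tissue, made with featureCounts 1.5.0-p3 on Ensembl release 86 of GRCm38 without strand, per the file headers. Fragments with several alignments or several genes were left out by that command. STAR, FastQC and DESeq2 are named without versions in the submitters' processing notes. No table row lacked a gene, and symbols matched 48349 of 48709 identifiers.

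Libraries were grouped by tissue and genotype from their titles. R 4.3.3 with edgeR 4.0.16 (filterByExpr, TMM, quasi-likelihood F-test, Benjamini-Hochberg over all genes tested) was fitted to the 6 libraries of a tissue, to all 30 with tissue as a term, and to the 15 WT libraries for tissue pairs. A gene is called at an adjusted p below 0.05. Each SE was taken from the fold change and its F statistic. Levels are CPM scaled by TMM within a tissue, with a constant per tissue from TMM over all libraries, and per kb of the deposited exon length. Log2 CPM for deviations used a prior count of 2. Alternatives were DESeq2 1.42.0, limma 3.58.1 with a random effect for libraries of equal genotype and number (this assumes that such libraries share a mouse, on which the labels are silent), other scalings and filters, a replicate block, and leaving out libraries or tissues. Scripts were tested on simulated counts.

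The 10 genes and all lists were chosen with earlier results of these data known. Genes named beside the 10 are Ctcf, called genes of the lists, the highest gene of each list in each tissue, and the 5 and 3 genes nearest to Col1a1 and Fn1. Genes outside that rule are marked in the text as named with their values in view. Replicate numbers were taken to pair WT and Ctcf+/- libraries where each number's deviations correlated above 0.1: r was 0.209, 0.386 and 0.540 in brain and 0.211, 0.194 and 0.212 in kidney. The labels do not say what the number marks. A count of 0 allows up to 3 counts, 0.0228 to 0.0602 CPM by total counts, for counting error only.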

Additional observations from a re-analysis of the deposited data

How the results depend on the processing

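Between genotypes, 0 of the 10 members were called in kidney, 1 with a filter of at least 1 count, 2 with DESeq2, and 0 to 1 when each library was left out (1 without Ctcf+/- library 3). Over all tissues 1 of the members was called, against 2 with DESeq2, 2 with the random effect for number and 0 without brain, kidney, liver, muscle or spleen. Of the genes in the matrix lists, DESeq2 called 11 in kidney, 1 each in brain, liver and muscle, and 2 over all tissues, where edgeR called 0. A filter of at least 1 count gave 1 in kidney, the fit of all 30 libraries gave 10 in spleen, and the random effect gave 2 over all tissues. Leaving out each library gave 0 to 2 matrix genes in kidney (2 without Ctcf+/- library 3) and 0 to 1 in spleen (1 without Ctcf+/- library 2). The cause was not tested.

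With the replicate number as a block, 2 members and 1 matrix gene were called in kidney, and 2 members over all tissues. In muscle, where libraries 1 correlated at only 0.0841 and the numbers are not taken as pairs, the block gave 1 member (Col3a1) and 1 matrix gene (Lum), against 0.735% of all genes. It changed no other count of calls between genotypes.

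Without division by exon length the median ratio in WT libraries went from 0.897 to 1.70 for Col1a2 over Col1a1, from 1.33 to 1.99 for Col3a1 over Col1a1, from 0.379 to 0.720 for Col6a2 over Col6a1 and from 0.263 to 0.718 for Col6a3 over Col6a1, by construction. Of 840 alternative values for steps between neighbouring tissues, 806 were counted as the same, 13 lost the call, 14 gained one and 7 were counted as reversed. The 806 include changes of sign in steps that were not called. Col1a1 brain over liver, at 0.06, was at -0.04 in the Ctcf+/- libraries. With total counts the log2 differences became -0.74 for Col1a2 and -0.33 for Col5a2 (liver over brain), and -0.05 for Col6a1, -0.93 for Sparc and -1.09 for Fn1 (muscle over brain). In Ctcf+/- libraries Col5a2 was at -0.10 (kidney over muscle) and Col6a1 at -0.02 (brain over kidney), and calls were lost for Col5a2 (liver over brain, 0.67), Col6a3 (kidney over liver, 0.92) and Sparc (brain over kidney, 0.30). Depth limits the spleen values, where every collagen here but Col5a1 had at most 107 counts in each WT library.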
